A study of Mus musculus with 4 samples.

Results

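The chitinase-like and resistin-like secreted genes were taken as all genes whose symbol starts with Chil and a digit, with Chia or with Retnl, or is Chit1. Of the 5807 genes listed in the deposited table, 6 matched, namely Chit1, Chil1, Chil3, Chil5, Retnla and Retnlg. The mouse annotation holds 10 genes with such symbols, and the other 4, Chia1, Chil4, Chil6 and Retnlb, were not analysed here and have no direction. Eosinophils were sorted from wild-type mice aged 6 to 8 weeks, 2 days after they received 150000 LLC cells, which derive from Lewis lung carcinoma and form malignant pleural effusions. RNA was sequenced from bone marrow eosinophils (2 libraries) and pleural cavity eosinophils (2 libraries), and by the labels both groups shared genotype and tumor cell injection and differed in tissue. Bone marrow cells were enriched by F4/80 and gated as live CD45+ SiglecF+ cells with high side scatter. Pleural cavity cells were enriched by CD45 and gated as live CD11b+ F4/80+ SiglecF+ cells with high side scatter. Their gate also removed CD11c+ and Gr1-high cells, a step the bone marrow gate did not have. Labels and methods describe bone marrow of LLC-bearing mice, whereas the study's main text calls these cells naïve, so that a difference in tumor exposure between the groups cannot be told apart from the tissue. Which wild-type strain was used for these libraries is not given in the sources used here.

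For each gene the table gives the authors' mean reads over the libraries of a tissue, which are estimated counts not scaled for depth. With a mean per tissue and no value per library, no error, overlap between groups or test can be given for any value below. Summed over all listed genes, the means came to 11762543 reads in bone marrow and 15947438 in pleural cavity eosinophils. Levels are therefore given as reads per 1000000 listed reads (RPM). A log2 ratio is that of pleural cavity over bone marrow after both means were scaled to the geometric mean of these totals, with a pseudocount of 1 scaled read. Because the table lists the genes that the authors called different between the tissues, the presence of a gene in it is not a result here.

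Chitinases are secreted enzymes that cleave chitin, a polymer of fungal walls, helminths and arthropods, and chitinase-like proteins keep their fold and sugar-binding groove without the catalytic activity. Resistin-like molecules are small cysteine-rich secreted proteins of immune and epithelial cells. Both groups are known from type 2 immunity and allergic airway disease, where several members are induced by IL-4 and IL-13 through the transcription factor Stat6, and some are also products of developing granulocytes in bone marrow.

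Pleural cavity eosinophils had lower levels of all 4 listed chitinase-branch genes and of Retnlg, and a higher level of Retnla. At an absolute log2 ratio over 1, 5 of the 6 members were lower, against 50.5% of all listed genes, and 1 was higher, against 16.0%. The members' median log2 ratio was -3.87, and it was the same with Chit1 set at its bound, while the median over all listed genes was -1.02. These 6 directions, and the position of each member past that threshold, held under each of the 3 other scalings tried. The scaling itself moved the whole table: the median of all listed genes shifted by 0.44 when the means were left unscaled and by -0.44 when the median of 1524 abundant genes (1000 or more mean reads in each tissue) was set to 0. All listed genes past the threshold split into 929 higher and 2935 lower, and these counts became 1768 and 2507 without scaling and 525 and 3326 with that median at 0. The authors' log2 ratios were not used, so these counts and directions are not the authors' own calls. No listed gene had an unscaled log2 ratio between -0.03 and 0.62. The scaling by totals sets 0 inside this gap, at 0.44, so that directions under it and without scaling are the same, while the median of abundant genes sets 0 outside it, at 0.88, which left 2077 listed genes above 0 in place of 2468. In sorted cells, fewer cells of a type and less RNA per cell cannot be told apart.

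**Figure D1:**
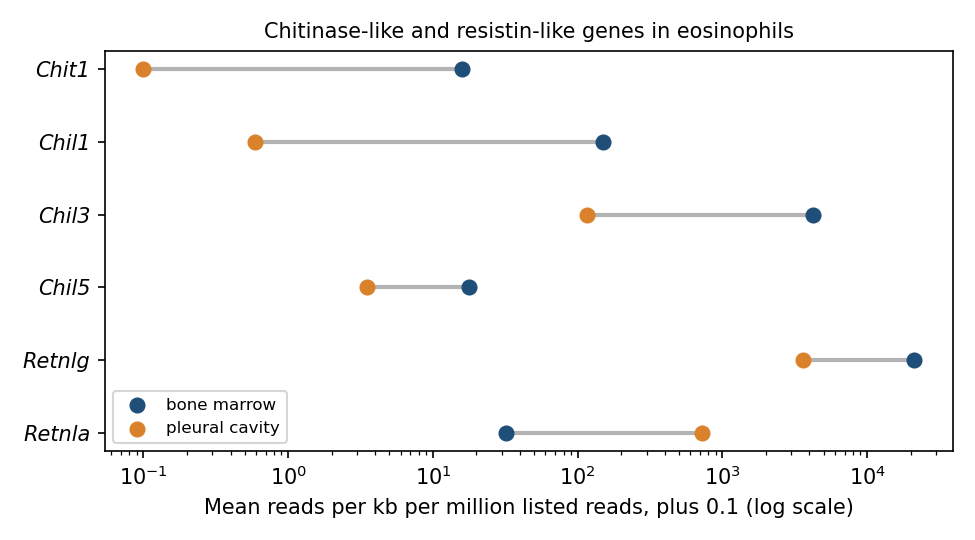
Level of each member in bone marrow (blue) and pleural cavity (orange) eosinophils, as the authors' mean reads per kilobase of the longest transcript, in RPM, plus 0.1, on a log axis. Each point is a tissue mean over 2 libraries with no error available, and Retnla is the member whose pleural cavity point lies to the right, under this scaling and the 3 others tried.

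Chit1 encodes chitotriosidase, the active chitinase best known from lipid-laden and activated macrophages. The authors' mean for Chit1 (ENSMUSG00000026450) was 336 reads in bone marrow and 0 in pleural cavity eosinophils. Taking a mean of 3 reads as the floor, its level was at least 151.8-fold lower in pleural cavity eosinophils. It was the member with no read at all in either pleural cavity library, a state it shared with 695 of the listed genes counting itself, whereas 14 listed genes had none in bone marrow.

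Chil1 encodes the chitinase-like protein also called BRP-39, the mouse counterpart of YKL-40, which binds chitin and several receptors. Chil1 (ENSMUSG00000064246) had 3213.5 mean reads in bone marrow and 14.5 in pleural cavity eosinophils. In RPM this was 273 and 0.909, a 300.5-fold lower level in pleural cavity eosinophils and a log2 ratio of -8.12. Of all listed genes, 27 had a lower log2 ratio, 2 of them with 0 reads in pleural cavity eosinophils. With a pleural cavity mean of only 14.5 reads, the size of this ratio is imprecise.

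Chil3 encodes Ym1, a lectin that can crystallise in inflamed airways and that is made by immature neutrophils and alternatively activated macrophages. Chil3 (ENSMUSG00000040809) had 76489 mean reads in bone marrow and 2849.5 in pleural cavity eosinophils. The levels were 6503 and 179 RPM, a 36.4-fold difference with a log2 ratio of -5.19. The bone marrow mean is fractional, as happens when reads are divided between similar genes, so the value is uncertain: the coding sequence of Chil3 matched that of Chil4, which was not analysed here, at 1141 of 1197 aligned bases (95.3%). The nearest match of Chil3 among the other listed members was Chil5, at 76.6%.

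Chil5 is a chitinase-like gene of the same cluster and is sparsely described. Chil5 (ENSMUSG00000043873) had 270.5 mean reads in bone marrow and 71 in pleural cavity eosinophils, a 5.17-fold lower level in the latter and a log2 ratio of -2.35. It had the smallest log2 difference among the members that were not at 0. Its log2 ratio was above -2 (-1.91) when means were not scaled.

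Retnlg encodes RELM-gamma, a resistin-like molecule found chiefly in bone marrow and neutrophils. Retnlg (ENSMUSG00000022651) had 147022 mean reads in bone marrow and 33927 in pleural cavity eosinophils. The levels were 12499 and 2127 RPM, 5.88-fold lower in pleural cavity eosinophils, with a log2 ratio of -2.55. Per kilobase, Retnlg stood at rank 4 in bone marrow and rank 13 in pleural cavity eosinophils among the 5656 listed genes with an annotated length. It was thus among the most abundant listed transcripts of both tissues despite the lower level in the pleural cavity.

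Retnla encodes RELM-alpha, also called FIZZ1, a classical Stat6 target in macrophages and airway epithelium. Retnla (ENSMUSG00000061100) had 225 mean reads in bone marrow and 6855.5 in pleural cavity eosinophils. This was a level of 19.1 and 430 RPM, 22.5-fold higher in pleural cavity eosinophils, with a log2 ratio of 4.48. Retnla had a log2 ratio higher than all but 45 of the listed genes. Per kilobase it moved from rank 1661 in bone marrow to rank 91 in pleural cavity eosinophils.

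The order of the levels within the family, compared as RPM per kilobase of the longest transcript, differed between the tissues. In bone marrow eosinophils the order was Retnlg (21078), Chil3 (4225), Chil1 (149), Retnla (31.9), Chil5 (17.7) and Chit1 (15.7). In pleural cavity eosinophils it was Retnlg (3588), Retnla (718), Chil3 (116), Chil5 (3.44), Chil1 (0.494) and Chit1 (0). Without an error, neighbours in either order, such as Chil5 and Chit1 in bone marrow, cannot be separated from the spread between libraries.

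Retnlg held 82.6% of the family's level per kilobase in bone marrow and 81.1% in pleural cavity eosinophils, while by reads, which weigh longer transcripts more, its share was 64.6% and 77.6%. Per kilobase, Retnla had the larger share of Chil3 and Retnla in the pleural cavity and the smaller in bone marrow, with Chil3 at 16.6% and 2.62% and Retnla at 0.125% and 16.2%. The level of Retnlg per kilobase was 660-fold that of Retnla in bone marrow and 5.0-fold in pleural cavity eosinophils, and that of Retnla over Chil3 went from 0.00756 to 6.18. These ratios within a tissue do not depend on the scaling. Summed over all members, levels were 19346 RPM in bone marrow and 2741 RPM in pleural cavity eosinophils, with the chitinase branch 37.1-fold and the resistin-like branch 4.90-fold lower in the latter.

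The members lie in 3 clusters of the genome (GRCm38, GENCODE annotation). Chit1 (chr1:134111242-134151540, plus strand) and Chil1 (chr1:134182176-134190181, plus strand) are neighbours 30.6 kb apart, and both were among the members with the lowest log2 ratios. Chil5 (chr3:106016919-106032814, minus strand) and Chil3 (chr3:106147554-106167564, minus strand) are 115 kb apart with Chia1 between them. Retnla (chr16:48842551-48844461, plus strand) and Retnlg (chr16:48872621-48874496, plus strand) are 28.2 kb apart, each with 4 exons in its longest transcript, and went in opposite directions.

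Other listed genes within 250 kb of a member were named by position after values were seen. Around the resistin-like pair, Trat1 (log2 ratio -1.91) and Cip2a (-3.44) were lower, so that Retnla was the listed gene of that region with a higher level. At the Chit1 and Chil1 locus, Ppfia4 was lower (log2 ratio -2.80) and Prelp had 31.5 mean reads in bone marrow and 1 in pleural cavity eosinophils, as for both members, while Btg2, an anti-proliferative gene 32.1 kb from Chit1, had a log2 ratio of 0.47, or 0.03 with the median of abundant genes set to 0. Next to the chromosome 3 members, the adenosine receptor gene Adora3 had a log2 ratio of 0.88 and I830077J02Rik one of 0.74, beside -2.35 for Chil5 and -5.19 for Chil3.

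Retnla and Retnlg are also close in sequence, with coding sequences identical at 84.2% of 354 aligned bases and promoters at 76.7% of 176 aligned bases. RefSeq promoters (GRCm38.p6) were found for all 6 members, and the 250 bases before the RefSeq start were searched for motifs. They are shown for the opposite pair and for Chil3, the most abundant chitinase-branch member per kilobase in both tissues. For Retnla the last 58 bases, which lie inside the gene as GENCODE places its start, are not shown. The motifs were chosen after the values were seen, and capitals mark matches on either strand to TTCNNNNGAA, the spacing preferred by Stat6, TTCNNNGAA, the spacing of other STAT factors, TTGCNNAA, a loose form of the C/EBP motif, and TATAAA, the TATA box. No marked matches overlap one another. The stretch shown for Retnla is chr16:48842359-48842550 (plus strand), that of Retnlg chr16:48872358-48872607 (plus strand) and that of Chil3 chr3:106167565-106167814 (minus strand).
Retnla: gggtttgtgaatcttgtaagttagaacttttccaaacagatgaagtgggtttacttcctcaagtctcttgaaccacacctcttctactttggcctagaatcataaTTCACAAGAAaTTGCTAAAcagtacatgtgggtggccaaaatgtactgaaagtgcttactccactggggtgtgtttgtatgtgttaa
Retnlg: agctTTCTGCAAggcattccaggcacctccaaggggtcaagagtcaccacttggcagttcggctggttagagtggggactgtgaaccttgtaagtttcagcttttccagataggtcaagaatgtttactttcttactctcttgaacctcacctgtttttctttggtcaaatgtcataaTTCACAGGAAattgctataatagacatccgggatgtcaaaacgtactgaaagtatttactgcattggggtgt
Chil3: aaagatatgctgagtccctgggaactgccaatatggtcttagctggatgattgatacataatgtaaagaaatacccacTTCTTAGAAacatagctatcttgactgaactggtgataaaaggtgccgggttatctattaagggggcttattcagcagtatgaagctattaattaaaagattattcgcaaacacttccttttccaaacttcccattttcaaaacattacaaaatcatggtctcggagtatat

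The letters TTCNNNNGAA were in the promoters of 2 of the 6 members, Retnla (TTCACAAGAA, starting at -145) and Retnlg (TTCACAGGAA, starting at -72), and in 5.85% of all 32851 RefSeq promoter windows of this length. The member that was higher and its neighbour that was lower thus both held them. TTGCNNAA was also in Retnla and Retnlg, against 9.56% of all windows, and the TATA box letters were in Retnla alone of the 6, among the bases not shown, against 12.4%. Chil3 held TTCNNNGAA, found in 7.02% of all windows. The windows of Chit1, Chil1 and Chil5 held none of the 4 motifs. A match is a description of letters and was not tested as a binding site.

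For each member the 3 nearest listed genes were found in the plane of log2 levels in RPM (plus 1) in the 2 tissues, leaving out symbols of the Gm and Rik kind. The neighbours of Chil1 were the mast cell protease gene Cpa3 (distance 0.24), LOC115487110 (0.25) and the neutrophil granule gene Olfm4 (0.26). Chit1 lay nearest to Mgam, which encodes the glycoside hydrolase maltase-glucoamylase and had 298.5 mean reads in bone marrow and 0.5 in pleural cavity eosinophils, followed by Lrrc4c and Dmkn. Among the genes near Chil5 were Gen1 (0.09) and Adprhl1 (0.11).

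The abundant members had few close neighbours in that plane. Chil3 was nearest to LOC115489417 at a distance of 1.0, with Hmgn2 and Clec12a at 1.92 and 1.94. Retnlg was nearest to Alox15 (0.91) and to the lysozyme gene Lyz2 (0.94), followed by Arhgdib (1.48). Retnla was nearest to the anti-apoptotic Bcl2a1b (0.80), the tubulin gene Tubb6 (0.81) and Ak8 (0.89), all of them higher in pleural cavity eosinophils.

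A list of 22 genes held the IL-4, IL-13 and Stat6 pathway, which induces Retnla, Chil3 and others in macrophages, together with 6 genes of other type 2 cytokines and their receptors. Of these 13 were listed, 12 with a log2 ratio above 0, against 42.5% of all listed genes. With the median of abundant genes set to 0 the count was 11, as Csf2rb turned lower, and Jak1 and Crlf2 stood at only 0.02. Without those 6 genes, an alternative chosen after the values were seen, 8 of 9 listed genes were higher. The list's median log2 ratio was 1.04, against -1.02 for all listed genes. At a log2 ratio over 1 it had 7 genes, against 16.0% of all listed genes, and 1 gene was under -1, against 50.5%. The count over 1 was 4 with the median of abundant genes set to 0 or with totals taken without the 50 most abundant genes. Under these scalings 525 and 713 of all 5807 listed genes were over 1. Stat6 had 4293.5 mean reads in bone marrow and 17585.5 in pleural cavity eosinophils (log2 ratio 1.59), and the receptor genes Il2rg (1.79) and Il4ra (0.95) were also higher, as were those of other cytokines, Il1rl1 (2.59), Csf2rb2 (0.97) and Crlf2 (0.46). Il4 (1.17), the kinase Jak1 (0.46), the inhibitors Socs1 (1.47) and Socs3 (1.11) and the phosphatase Ptpn6 (1.04) followed, while Il13ra1 was lower (-1.68). Retnla thus had the direction of most of this list, whereas Chil3 had the opposite one.

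Genes that mark alternative activation of macrophages, with which Retnla and Chil3 are commonly grouped, were mixed. Of 26 genes 13 were listed, 4 with a log2 ratio over 1, against 16.0% of all listed genes, and 8 under -1, against 50.5%, with a median of -1.81 beside -1.02. On the side of Retnla (4.48) stood the folate receptor gene Folr2 (5.65) and fibronectin, Fn1 (3.0), with Tgm2 at 0.73. Folr2 had only 12 mean reads in bone marrow eosinophils, so the size of its ratio is imprecise. On the side of Chil3 (-5.19) stood the lectin genes Mgl2 (-5.09) and Clec7a (-2.20) and the lipoxygenase gene Alox15 (-1.85), of which Mgl2 and Alox15 had fractional reads.

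Of 16 genes for reported binding partners and receptors of these secreted proteins, 6 were listed, 4 with a log2 ratio above 0, against 42.5% of all listed genes, and 2 below it, against 57.5%, and the median was 0.63 beside -1.02. Cd44 (1.42), Lgals3bp (3.17), Camk2d (0.74) and Tmem219 (0.51), a receptor component for Chil1, were higher, and Ager (-1.46) and Dcn (-5.66) were lower. With a pleural cavity mean of 3.5 reads for Dcn, the size of its ratio is imprecise. For Chil1, the partner gene Tmem219 thus had 686 mean reads in bone marrow and 1328 in pleural cavity eosinophils, where Chil1 itself had 14.5.

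Of a list of 23 other glycoside hydrolase genes, which does not hold Mgam, 12 were listed. Of these 6 were higher and 6 lower, near the 42.5% and 57.5% of all listed genes. Their log2 ratios ran from -1.88 for Gla to 1.04 for Man2b1. The median was -0.15, beside -1.02 for all listed genes and a bound of -7.25 for Chit1. Man2b1, Manba (0.71), Fuca1 (0.60) and Oga (0.39) were among the higher ones, although Oga turned lower with the median of abundant genes set to 0. Gla, Hexdc (-1.55, with fractional reads), Lyz2 (-1.24), Lyz1 (-1.06), Gaa (-0.83) and Neu1 (-0.70) were lower. The summed reads of this list were 11655 RPM in bone marrow and 9503 in pleural cavity eosinophils, an order that reversed without scaling.

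**Figure D2:**
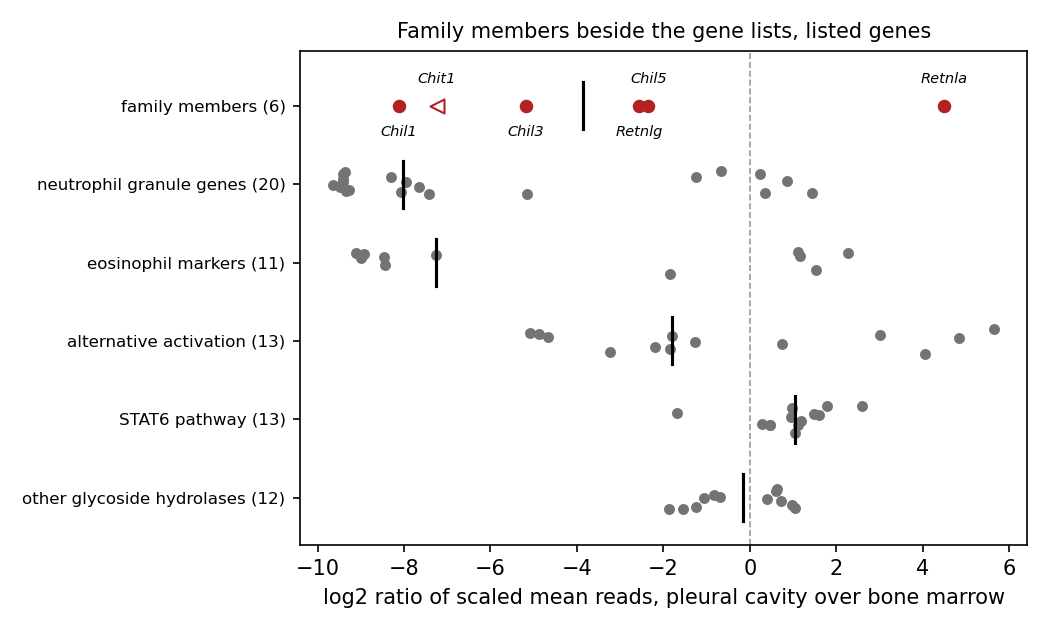
Log2 ratio of scaled mean reads, pleural cavity over bone marrow eosinophils, for the 6 members (red) and the listed genes of 5 gene lists (grey), with a vertical bar at each median. The open triangle is the bound for Chit1 and each list's number of listed genes is in brackets. Retnla at 4.48 lies apart from the other members, and Csf2rb and Oga, with 2 neutrophil granule genes near 0, change sign with the median of abundant genes set to 0.

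Products of developing neutrophils differed between the tissues along with the lower members. The list named neutrophil granule genes also holds other neutrophil genes, such as the transcription factor gene Gfi1. Of its 23 genes 20 were listed, 15 with a log2 ratio under -1, against 50.5% of all listed genes, and 1 over 1, against 16.0%, with a median of -8.02 beside -1.02. Of the 20 genes 4 were above 0, against 42.5% of all listed genes. These were Padi4 (1.43), Mmp9 (0.87), Itgam (0.35) and Pglyrp1 (0.24). The count over 1 was 2 without scaling and 0 with the median of abundant genes set to 0, where Itgam and Pglyrp1, named after their values were seen, turned lower. Summed, the list went from 120278 to 13906 RPM, with Ngp the most abundant gene by reads in bone marrow and Padi4 in pleural cavity eosinophils. In the pleural cavity sum, Padi4, Lyz2 and Mmp9 had 3809, 3160 and 2177 RPM. The log2 ratios of Ngp (-9.35), S100a8 (-9.41), Mpo (-9.47), S100a9 (-9.37) and Camp (-9.41) were below that of Chil1 (-8.12), and Chil3 (-5.19) and Retnlg (-2.55) were further from them.

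The 16 markers of neutrophils and their precursors, 13 of which are shared with the granule list, were also mostly lower. Of the 16 markers 15 were listed, 14 were lower, against 57.5% of all listed genes, and none stood at 0. Their sum went from 105942 to 2367 RPM, most abundant in Ngp and Mmp9 respectively. This sum was 44.8-fold lower in pleural cavity eosinophils, against 8.65-fold for the granule list, and the median log2 ratios were -9.26 and -8.02. Retnlg had a log2 ratio of -2.55 beside -9.35 for Ngp, so the ratio of Retnlg to Ngp differed between the tissues whatever the scaling. By the study's methods both groups were sorted to high purity as SiglecF+ cells with high side scatter and checked by Wright-Giemsa staining. Gr1-high cells were removed by the pleural cavity gate and not by the bone marrow gate. The part of such transcripts in the values of Chil1, Chil3, Chit1 and Retnlg was not tested.

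Of 12 eosinophil markers 11 were listed and none was at 0. Adgre1 (2.26) and, named after their values were seen, Siglecf (1.15), Ccr3 (1.54) and Gata1 (1.11) were higher in pleural cavity eosinophils. Adgre1 and Siglecf encode surface proteins by which these cells were enriched or gated, so their levels are no independent check of the eosinophil label. The Adgre1 protein was required by the pleural cavity gate but used only for enrichment in bone marrow. The part of this step in the higher Adgre1 level was not tested. The granule genes Prg2 (-8.99), Epx (-9.10), Ear1 (-8.93) and Ear2 (-8.43) and, less so, Alox15 (-1.85) were lower, and summed marker reads went from 96720 to 12751 RPM, led by Prg2 and Adgre1. Chil1 had a log2 ratio close to those of the granule genes, and Chil3 and Retnlg had smaller differences. Ear1, Ear2 and Alox15 had fractional reads.

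Markers of monocytes and macrophages, cells known to make Retnla and Chit1, had 8 of 17 genes listed, 4 higher and 4 lower, near the 42.5% and 57.5% of all listed genes, with none at 0. Csf1r (1.94), C1qb (1.77), Cd14 (1.51) and C1qa (0.91) were higher along with Retnla, and Ly6c2 (-5.62) and Apoe (-0.73) were lower along with Chil3. Their sum was 2991 RPM in bone marrow, led by Ly6c2, and 2215 in pleural cavity eosinophils, led by Csf1r, an order that reversed without scaling. Whether they have a part in the level of Retnla was not tested.

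All 6 listed of 10 basophil and mast cell markers were lower along with Chil1, as were 57.5% of all listed genes, from 968 to 10.9 RPM in sum, led by Prss34 (-9.83) in bone marrow and Gata2 (-2.91) in pleural cavity eosinophils. Of 15 lymphocyte markers 4 were listed, with Nkg7 (-6.97) leading in bone marrow and Ms4a1 (1.33), the listed marker that was higher, in pleural cavity eosinophils, and a sum of 912 and 32.9. Of 8 erythroid markers 3 were listed and lower, a direction shared with 57.5% of all listed genes, with sums of 18.6 and 0.408, led by Klf1 and Epor. Of 10 epithelial and mesothelial markers 3 were listed. Of these Sftpc (-1.88) and Scgb1a1 (-1.54) were lower and Krt18 (1.45) was higher, with 518 and 1918 mean reads, and led the list's sums of 64.6 and 127 in both tissues. The part of these cell types in the members' values was not tested.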

How the data were processed

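RNA was sequenced from eosinophils of bone marrow and pleural cavity, 2 libraries per tissue, grouped by their titles. Per the submitters' processing notes and methods, reads were trimmed with SOAPnuke, aligned with HISAT2 2.1.0, mapped to genes with Bowtie2 2.2.5 and quantified with RSEM 1.2.8 on GRCm38, and the authors compared tissues with DESeq2. The deposited values used here are means of expected counts, which the authors took over each tissue's libraries. The table's other columns hold the authors' log2 ratio, P and Q values, which chose its genes and were not used.

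Both means were divided by the total of the listed genes and multiplied by the geometric mean of the totals. Depth per library is unknown. Folds against 0 reads used a floor of 3 mean reads and cover counting error only. The ratio step was tested on simulated counts in which most genes were unchanged and as many rose as fell. The listed genes were all called different and were mostly lower, so that test does not show which scaling is right here. Fractional means, those off a multiple of 0.5, occurred in 25.8% of listed genes. Of the listed genes, 5656 matched an earlier GENCODE release on the same assembly. Identity came from global alignments of the longest coding sequences.

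Named genes were all members, all listed genes of the Stat6 pathway, binding partner and glycoside hydrolase lists, up to 6 genes with most reads of each other list, and the 3 nearest genes of each member. Some genes within this rule are not reported here. Older symbols in the lists were matched through RefSeq synonyms, a step added after values were seen, which joined Mgea5 with Oga and found Hexd as Hexdc. Members and lists were chosen with earlier results of these data known. Alternatives covered scaling, pseudocount, threshold, low reads and fractional reads. Software was Biopython 1.88, matplotlib 3.10.9, scipy 1.17.1, pandas 2.3.3, numpy 2.4.6 and Python 3.11.15.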

Additional observations from a re-analysis of the deposited data

How the results depend on the processing

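The 6 members kept their direction and stayed past an absolute log2 ratio of 1 under the 3 other scalings. The unscaled log2 ratio was -4.75 for Chil3, -1.91 for Chil5, -2.12 for Retnlg and 4.92 for Retnla. With the median of abundant genes set to 0 these ratios were -5.63, -2.79, -3.0 and 4.04. With totals taken without the 50 most abundant genes, Chil3 had -5.38, Retnlg -2.75 and Retnla 4.29. The other shifts, including those with pseudocounts of 0.5 and 5, stayed within the 95% exact binomial interval of the summed reads, which covers counting error and not the spread between libraries, and Chit1 was treated as a bound. The filter on low reads in both tissues left out Chit1 and the filter on fractional reads left out Chil3, so that 4 lower members were counted under either.

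Listed genes with a log2 ratio over 1 numbered 1768 without scaling and 525 with the median of abundant genes set to 0, and 304 had a log2 ratio over 2. Of the 4470 listed genes with 10 or more mean reads in both tissues, 1666 had a log2 ratio under -1 and 861 had one over 1. Gene lists with higher summed reads numbered 3, or 5 without scaling, where the log2 ratio of summed reads turned to 0.14 for other glycoside hydrolases and 0.01 for monocyte and macrophage markers. With the median of abundant genes set to 0, Csf2rb turned to -0.18 and Oga to -0.05, and of the 85 genes named by the rule, 253 of 255 values over the 3 scalings kept their sign. Itgam and Pglyrp1, named outside the rule, also turned lower with that median at 0. The cause was not tested.

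No paired analysis was possible because the table holds only tissue means, and leaving out a library could not be run for the same reason. The means give no spread between mice. Levels from few reads are imprecise, such as those of Chil1, Dcn and Prss34 in pleural cavity eosinophils and of Folr2 in bone marrow eosinophils.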
